A study of Mus musculus with 19 samples.

Results

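Bone sialoprotein (*Ibsp*), osteopontin (*Spp1*), osteonectin (*Sparc*), matrix Gla protein (*Mgp*) and fibronectin (*Fn1*) are 5 of the 53558 genes quantified in 19 bulk RNA-seq libraries of neoplastic cells sorted from mouse lung tumors. *Ibsp* was chosen by its measured counts, being close to absent in sgInert libraries and higher in both targeted groups, and the other 4 were added because they encode related secreted matrix proteins. The *Ibsp* differences from sgInert are therefore given as a description, with no test. *Fn1* and *Sparc* were already known to be higher in both targeted groups when the set was drawn up, so their directions are not independent support for it.

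All mice, controls included, carried a Cre-activated fluorescent reporter (R26LSL-tdTomato) and Cre-activated Cas9 (H11LSL-Cas9) beside a tumor-initiating allele, and were 6 to 12 weeks old when tumors were initiated by lentivirus given into the trachea. The virus carried Cre with guides that have no target of interest (sgNeo1/sgNT/sgNeo2, sgInert, n = 7 libraries), with guides to *Cebpa*, *Cebpb* and *Cebpd* (sgCebpa/b/d, n = 7) or with a guide to *Lkb1*, whose gene symbol is *Stk11* (sgLkb1, n = 5). After 17 weeks, tumors were dissected, and live cells lacking CD45, CD31, F4/80 and Ter119 were sorted. These 4 proteins mark blood and endothelial cells but not fibroblasts or pericytes. The study names a gate on tdTomato, which would leave out cells that Cre did not reach, for other sorts of neoplastic cells, and the sorting protocol used here does not spell it out. Editing happens separately in each infected cell, so a targeted library can hold cells in which a gene was not disrupted.

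Totals ran from 2760731 to 9944134 estimated counts per library. *Stk11* was lower in each sgLkb1 library (7.55 to 15.25 TPM) than in any sgInert library (17.54 to 27.84 TPM). Cas9 need not remove the transcript it cuts, and *Cebpa* RNA was higher in sgCebpa/b/d (43.86 to 86.11 TPM) than in sgInert (26.74 to 46.36 TPM), by 0.73 ± 0.14 on the log2 scale (edgeR adjusted p = 0.00148). Library titles carry an animal number starting with MT (10 libraries), one starting with ZR (4 libraries, all sgInert) or none (5 libraries, all targeted). The sgInert libraries came from 6 numbered animals, the 4 numbered sgCebpa/b/d libraries from 2 and the 3 numbered sgLkb1 libraries from 2, so some libraries share an animal and p-values measure the spread between libraries. All 5 sgLkb1 libraries are female, and the other groups hold both sexes. The alveolar type II and epithelial markers (*Sftpc*, *Sftpb*, *Sftpa1*, *Lamp3*, *Nkx2-1*, *Epcam*, *Cdh1*) summed to 29729 to 63495 TPM in every library, and the cartilage markers to at most 0.86 TPM.

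The 5 proteins are building blocks of the extracellular matrix, and in bone they sit in or around the mineral. Bone sialoprotein and osteopontin belong to the SIBLING family, acidic phosphoproteins that hold an RGD cell-attachment motif and bind integrins such as αvβ3. Osteonectin binds collagen and calcium, and matrix Gla protein holds back calcification once it has been carboxylated by a vitamin K-dependent enzyme. Fibronectin forms fibrils on which cells spread through integrins. In lung tissue, fibroblasts make much of the fibronectin and matrix Gla protein, and macrophages are a known source of osteopontin.

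*Ibsp* and *Spp1* lie on the same strand of one chromosome, and the sequences before their starts are shown because 1 virus targeted transcription factors of the C/EBP family. On GRCm38, *Ibsp* occupies chr5:104299171-104311469 and *Spp1* chr5:104435118-104441050, with starts 136 kb apart. The RefSeq promoter table (GRCm38.p6) held 3 of the 5 genes, and *Mgp* and *Fn1* are not in it. In the 250 bases before each RefSeq start, both strands were searched for 5 motifs, and capitals mark the matches. The *Ibsp* stretch printed is limited to 30 bases, since a GENCODE exon of the gene already covers it.
*Ibsp*, chr5:104299208-104299237, plus strand, bases -79 to -50: TGACGttgtgctggccacagctgtgATTGG
*Spp1*, chr5:104434861-104435110, plus strand, bases -250 to -1: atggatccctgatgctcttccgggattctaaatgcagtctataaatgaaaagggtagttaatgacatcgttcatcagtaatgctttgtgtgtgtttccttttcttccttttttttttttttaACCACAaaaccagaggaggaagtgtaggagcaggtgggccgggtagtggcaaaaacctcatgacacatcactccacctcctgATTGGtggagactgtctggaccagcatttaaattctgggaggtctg
The *Ibsp* window held the cyclic AMP response half-site TGACG and an inverted CCAAT box (ATTGG). The CCAAT box is a promoter element read by NF-Y and is not the letters that C/EBP proteins prefer. The *Spp1* window also held an inverted CCAAT box, and the RUNX core ACCACA. Of 32851 promoter windows of this length, 33.8% held CCAAT, 17.8% TGACG and 14.0% ACCACA on either strand. The C/EBP consensus TTNNGCAA, present in 9.56% of windows, was not in the *Ibsp* window or in this *Spp1* window, and was in the window before the second RefSeq start of *Spp1* at bases -156 to -149. The AP-1 letters TGANTCA, found in 6.75% of windows, were in none of these windows, and the *Sparc* window held none of the 5 motifs.

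*Ibsp* transcripts were almost absent from sgInert tumors and present in every targeted library. The sgInert libraries had 0 counts in 6 of 7, and 5 counts in sgInert replicate 6. The sgCebpa/b/d libraries had 67, 103, 244, 56, 179, 58 and 115 counts in the order of their replicate numbers. The sgLkb1 libraries had 20, 98, 69, 2 and 87 counts. All 7 sgCebpa/b/d libraries lay above every sgInert library, as 1.28% of the 13986 genes tested did. *Ibsp* was chosen for this pattern, so the share does not measure how unusual it is. By contrast, sgLkb1 replicate 4, with 2 counts, lay inside the sgInert range.

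Scaled to library size, *Ibsp* reached 19.3 counts per 1e6 counts (CPM) over the pooled sgCebpa/b/d libraries, 7.14 CPM over sgLkb1 and 0.138 CPM over sgInert. The 95% exact Poisson intervals were 18.0 to 20.6, 6.32 to 8.03 and 0.0448 to 0.322 CPM, and cover counting error only. The pooled ratio to sgInert was 140 for sgCebpa/b/d and 51.8 for sgLkb1, and both rest on the 5 counts of 1 sgInert library. *Ibsp* was chosen by these contrasts, so the ratios here and below are descriptions and not tests. A library at 0 allows up to 3 counts, which in the sgInert libraries is 0.387 to 0.795 CPM. All 3 MT sgInert libraries were at 0. The floor of 3 counts over those 3 libraries pooled is 0.173 CPM. Against it, pooled *Ibsp* was 111-fold higher in the MT sgCebpa/b/d libraries and 42.2-fold higher in the MT sgLkb1 libraries. The latter does not hold for each library, since sgLkb1 replicate 4 alone was at 0.197 CPM, close to the floor. Without sgLkb1 replicate 4, a choice made after its 2 counts were seen, the second value was 74.4-fold. These ratios leave out the counting error of the targeted libraries. The upper 95% Poisson limit of the pooled MT sgInert libraries, 0.213 CPM, lies above the floor used and would give smaller ratios. The fitted log2 fold change against sgInert was 7.01 ± 0.90 (SE) for sgCebpa/b/d and 5.69 ± 0.94 for sgLkb1, values set by the 5 counts of 1 library.

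The spread of *Ibsp* within a targeted group was wide, also within an animal. Replicates 1, 3 and 4 of sgCebpa/b/d share an animal number and ranged from 9.49 to 40.2 CPM, a 4.24-fold range. In sgLkb1, replicates 2 and 3 share an animal and had 15.4 and 10.5 CPM, whereas replicate 4, from another animal, had 0.197 CPM. The difference between sgCebpa/b/d and sgLkb1, which the choice of the gene did not use, was 1.32 ± 0.64 in log2 fold change (edgeR adjusted p = 0.277). *Ibsp* thus stood higher on average in sgCebpa/b/d, but by less than the test could separate from the spread among libraries.

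**Figure D1:**
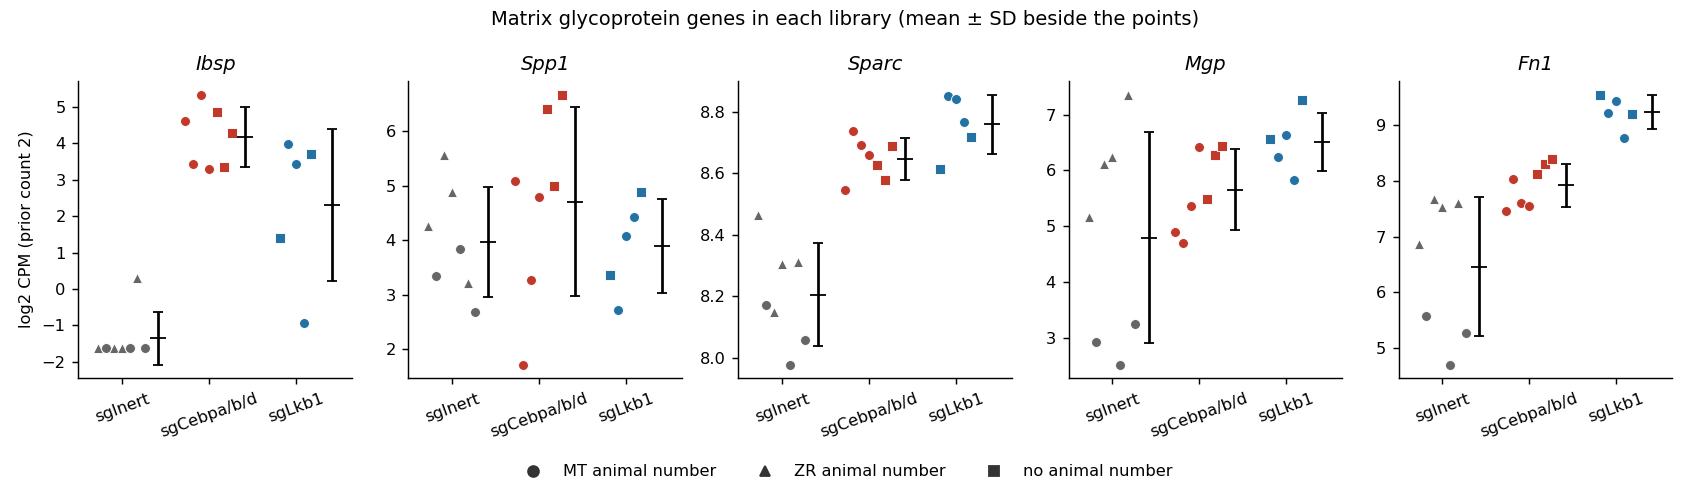
Log2 CPM (prior count 2) of the 5 genes in each of the 19 libraries, by virus group, with the group mean ± SD beside the points and the shape showing the kind of animal number in the library title. *Ibsp* separates all 7 sgCebpa/b/d libraries from sgInert, *Sparc* separates both targeted groups within a narrow range, and the ZR and MT sgInert libraries part for *Mgp* and *Fn1*.

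*Spp1*, the SIBLING neighbour of *Ibsp*, varied more among libraries of 1 group than between groups. In TPM, sgInert libraries ran from 6.22 through a median of 15.28 to 48.14. The sgCebpa/b/d libraries ran from 3.33 through 34.97 to 89.99 TPM, and the 5 sgLkb1 libraries had 12.7, 7.41, 19.9, 27.9 and 34.2 TPM. All 3 ranges overlapped. The log2 fold change was 1.13 ± 0.57 for sgCebpa/b/d against sgInert (edgeR adjusted p = 0.238), -0.19 ± 0.63 for sgLkb1 against sgInert (adjusted p = 0.919) and 1.32 ± 0.63 between the targeted groups (adjusted p = 0.272). None passed the test.

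Among sgCebpa/b/d libraries, *Spp1* ran higher in those without an animal number, with some overlap. These 3 libraries had 34.97, 83.9 and 89.99 TPM, and the 4 MT libraries 3.33 to 38.23 TPM. The same 3 libraries had the highest macrophage and leukocyte marker sums of their group (43.67 to 68.04 TPM for 9 genes, against 5.53 to 11.21 TPM in the MT libraries). In sgLkb1, the 2 libraries without a number had marker sums of 33.58 and 69.89 TPM and *Spp1* at 34.2 and 12.7 TPM, inside or just above the MT range of 7.41 to 27.89 TPM. The part of these cells in the *Spp1* values was not tested. The 3 sgCebpa/b/d libraries without a number also had the lowest alveolar type II and epithelial marker sums of their group. These were 29729 to 44123 TPM, against 49570 to 54411 TPM in the MT libraries. The 3 libraries are male and the 4 MT libraries female, so that title and sex cannot be told apart there. In bulk RNA, fewer cells of a type and less RNA per cell cannot be told apart.

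The other SIBLING genes were silent or nearly so. *Mepe*, between *Ibsp* and *Spp1*, had 0 counts in all 19 libraries. *Dmp1* had 3 counts and *Dspp* 2 over the whole series, and none of the 3 was tested. Beyond the family, *Sparcl1*, which encodes a SPARC relative and starts 185 kb before *Ibsp*, rose in both targeted groups, by 1.49 ± 0.45 (edgeR adjusted p = 0.0363) and 2.10 ± 0.48 (adjusted p = 0.0101). *Pkd2*, which encodes polycystin-2 and starts 160 kb after *Ibsp*, had log2 fold changes of 0.15 and 0.07 (adjusted p = 0.404 and 0.798). *Abcg2*, a drug transporter listed as a neighbour from the order in other mammals, lies on chromosome 6 in this annotation (chr6:58584523-58695676) and had 1.82 and 1.39 (adjusted p = 0.103 and 0.321). The gain of *Ibsp* counts was thus measured in a stretch whose nearest genes, *Dmp1* and *Mepe*, stayed at or near 0 in every group.

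**Figure D2:**
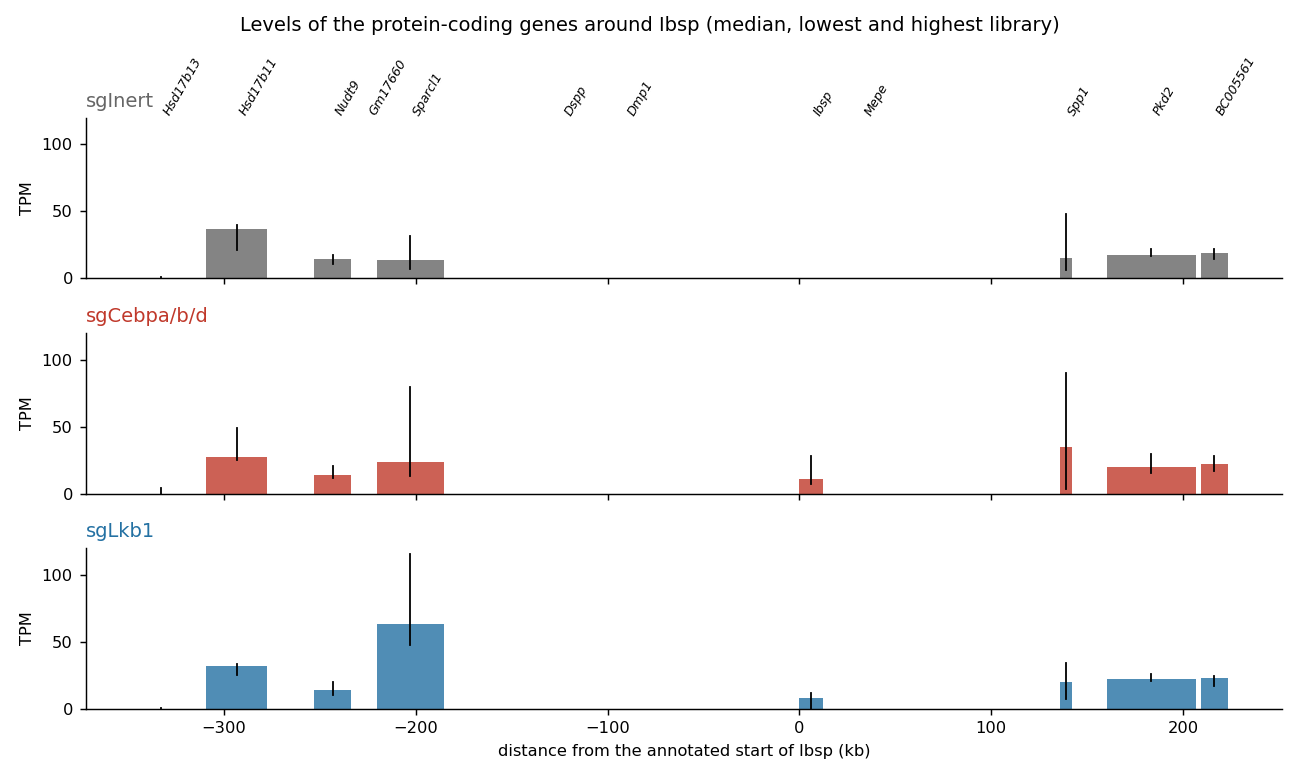
TPM of the protein-coding genes around *Ibsp* in each virus group, against distance in kb from the annotated start of *Ibsp*. Bars give the group median over the width of the gene and black lines the lowest and highest library. *Ibsp* has a median of 10.95 TPM in sgCebpa/b/d, 8.10 TPM in sgLkb1 and 0 in sgInert, where its highest library is at 0.61 TPM, *Dspp*, *Dmp1* and *Mepe* stay at or near 0, and *Sparcl1* is highest in sgLkb1 (63.63 TPM).

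*Sparc* was the steadiest of the genes and rose in both targeted groups by a small amount. On GRCm38 it lies at chr11:55394500-55423183 on the minus strand. In sgInert it ran from 284 to 353 CPM in the ZR libraries and from 252 to 288 CPM in the MT libraries. The sgCebpa/b/d libraries had 373 to 426 CPM and the sgLkb1 libraries 391 to 461 CPM, so on this scale both targeted groups lay above every sgInert library. Such a gap was seen for 1.28% of genes tested in the first comparison and 2.15% in the second. In TPM, sgCebpa/b/d (271 to 368) overlapped sgInert (215 to 313), and sgLkb1 (380 to 412) did not. Against sgInert the log2 fold change came to 0.43 ± 0.08 for sgCebpa/b/d (edgeR adjusted p = 0.000576, against a background of 4.73% of genes higher at adjusted p under 0.05) and 0.55 ± 0.08 for sgLkb1 (adjusted p = 0.000299, background 2.81%). Between the targeted groups it was -0.11 ± 0.08 (adjusted p = 0.522). These comparisons share the same sgInert libraries.

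*Sparc* varied little between libraries of 1 animal, and its rise was also seen within the MT series. No animal carried more than 1 virus, and the MT libraries of each group come from 2 animals. The 3 libraries of 1 sgCebpa/b/d animal differed by 1.11-fold, and the 2 of 1 sgLkb1 animal by 1.01-fold. In the 10 MT libraries alone, *Sparc* rose by 0.58 ± 0.09 and 0.74 ± 0.09 on the log2 scale in the same comparisons (edgeR adjusted p = 0.000854 and 0.000196).

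*Fn1* had its highest levels in sgLkb1. It lies at chr1:71585520-71653200 on the minus strand. The sgInert libraries had 116, 47.5, 204, 184, 25.8, 193 and 38.5 CPM in replicate order. The sgCebpa/b/d libraries ran from 175 to 333 CPM and the sgLkb1 libraries from 435 to 745 CPM. All sgLkb1 libraries lay above all others, and 2.15% of genes tested lay above sgInert in this way. The lowest sgCebpa/b/d libraries lay inside the sgInert range.

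The log2 fold change of *Fn1* was 2.40 ± 0.39 in sgLkb1 against sgInert (edgeR adjusted p = 0.000560), where 2.81% of genes were higher. Against sgInert, sgCebpa/b/d was 1.11 ± 0.36, with an edgeR adjusted p of 0.0504, so it did not pass. The 2 targeted groups differed by -1.29 ± 0.38 (adjusted p = 0.0455), with sgCebpa/b/d lower, in a comparison where 3.12% of genes were lower and 2.83% higher. There, all sgCebpa/b/d libraries lay below all sgLkb1 libraries, as for 2.87% of genes. The call held in 8 of 10 alternatives, with adjusted p from 1.09e-05 (title series as a term) to 0.162 (libraries of 1 animal summed) and log2 fold changes from -1.60 to -1.12, and was lost in 12 of the 19 fits that each left out 1 library.

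*Mgp* ranged too widely in sgInert for a difference to be seen over all libraries. It lies at chr6:136872435-136875823 on the minus strand. The sgInert libraries had 35.5, 7.29, 68.7, 75.7, 5.42, 164 and 9.26 CPM, a wider span than the whole of the other groups. The sgCebpa/b/d libraries ran from 25.8 to 86.6 CPM and the sgLkb1 libraries from 56.7 to 153 CPM. Its log2 fold change came to 0.10 ± 0.55 for sgCebpa/b/d (edgeR adjusted p = 0.947), 0.88 ± 0.59 for sgLkb1 (adjusted p = 0.471) and -0.78 ± 0.59 between them (adjusted p = 0.534).

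Within sgInert, *Mgp* and *Fn1* followed the title series. The 4 ZR libraries had 188 to 911 counts of *Mgp*, and the 3 MT libraries 38 to 42. For *Fn1* the ZR libraries had 616 to 1071 counts and the MT libraries 158 to 261. Neither gene overlapped between the 2 kinds of sgInert library, with ZR higher, a pattern shown by 5.45% of genes tested. *Spp1*, *Sparc* and *Ibsp* overlapped. The titles do not say what the prefixes stand for, and the MT sgInert libraries come from 2 animals.

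With only the 10 MT libraries, *Mgp* was 2.66 ± 0.41 higher in sgCebpa/b/d (edgeR adjusted p = 0.000929, background 4.3% of genes higher) and 3.42 ± 0.42 higher in sgLkb1 (adjusted p = 0.000181, background 3.61%). *Fn1* was 2.46 ± 0.22 higher in sgCebpa/b/d (adjusted p = 1.35e-05). With title series as a term over all 19 libraries, *Mgp* was 2.66 and 3.44 higher (edgeR adjusted p = 0.00144 and 0.000238, backgrounds 3.32% and 2.75%) and *Fn1* in sgCebpa/b/d 2.53 higher (adjusted p = 7.01e-07). The ZR libraries are all sgInert and those without a number all targeted. This fit too therefore sets the targeted groups against the MT sgInert libraries, and is no separate support. The call on *Mgp* in both comparisons, and that on *Fn1* in sgCebpa/b/d, therefore depended on which sgInert libraries served as the control.

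**Figure D3:**
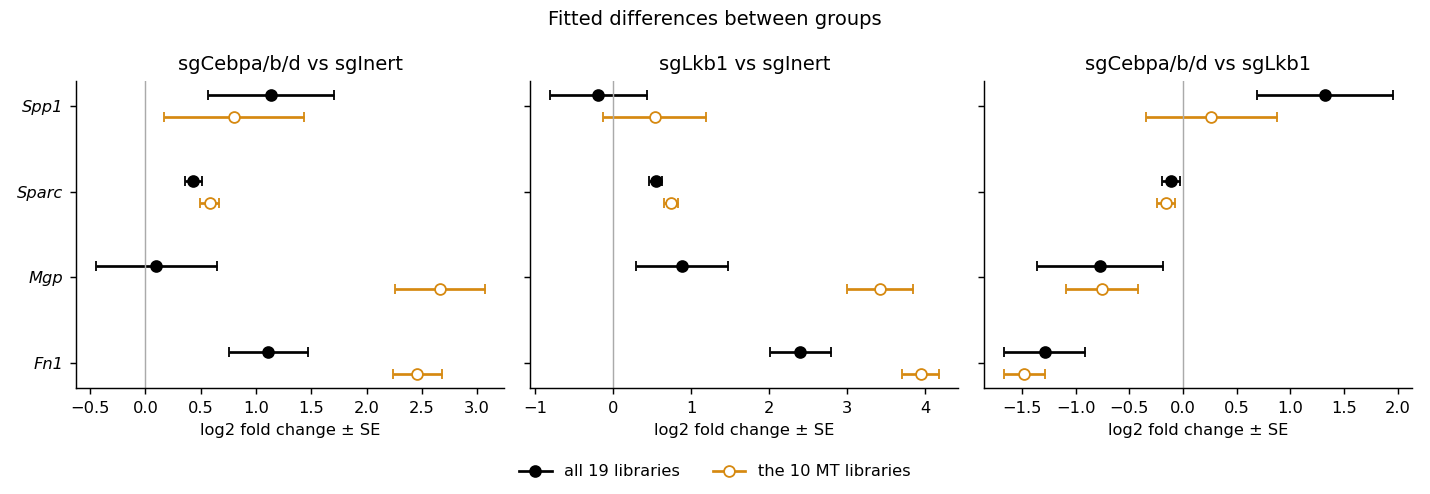
Log2 fold changes ± SE of *Spp1*, *Sparc*, *Mgp* and *Fn1* in the 3 comparisons, fitted over all 19 libraries (black) and over the 10 MT libraries (open orange). In both comparisons with sgInert, *Mgp* and *Fn1* lie farther from 0 in the MT libraries, whereas *Sparc* stays between 0.43 and 0.74 in both fits and *Spp1* passes in neither.

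Without *Ibsp*, whose direction was fixed by the choice, log2 fold changes of the other 4 genes against sgInert had a median of 0.77 for sgCebpa/b/d and 0.71 for sgLkb1, beside 0.02 and -0.01 over all 13986 genes. *Fn1* and *Sparc*, already known to be higher, are among these 4. Compared per transcript length, *Sparc* had the highest mean TPM in each group (256 in sgInert, 337 in sgCebpa/b/d, 394 in sgLkb1), followed by *Mgp* (166, 178 and 351), *Fn1* (29.4, 62.7 and 169), *Spp1* (20.4, 41.8 and 20.4) and *Ibsp* (0.0871, 13.8 and 6.28). *Sparc* and *Mgp* overlapped in every group, as did *Spp1* and *Ibsp* in both targeted groups. *Mgp* and *Fn1* did not overlap in sgCebpa/b/d or sgLkb1. *Fn1* and *Spp1* did not overlap in sgLkb1 but did in sgInert and sgCebpa/b/d. In the MT sgInert libraries alone, mean TPM was 10.5 for *Spp1* and 9.61 for *Fn1*, the reverse of the order over all sgInert libraries.

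Markers of other cell types were present at low levels, and the fibroblast list split the sgInert libraries as *Mgp* and *Fn1* did. The 8 fibroblast markers summed to 5.10 to 6.98 TPM in MT sgInert libraries, 17.88 to 51.40 in ZR sgInert, 37.92 to 138.80 for sgCebpa/b/d, and from 46.70 up to 136.85 with sgLkb1. Of these, 3 rose in sgCebpa/b/d (*Col3a1*, *Dcn*, *Col14a1*) and 2 in sgLkb1 (*Col3a1*, *Dcn*), and none was at 0 across a group. Of all genes tested, 4.73% were higher in sgCebpa/b/d and 2.81% in sgLkb1. The 7 endothelial markers summed to 7.60 to 19.14 TPM in sgInert, without that split (MT 11.87 to 19.14, ZR 7.60 to 18.12). Sums were 11.63 to 119.17 for sgCebpa/b/d, and from 31.40 up to 99.12 with sgLkb1. The MT sgCebpa/b/d libraries (11.63 to 25.57) overlapped MT sgInert, and those without an animal number had 94.58 to 119.17. Of the 7 markers, 5 and 1 rose, against those same shares of 4.73% and 2.81%. The 7 smooth muscle and pericyte markers reached 9.31, 14.04 and 24.25 TPM at most in the 3 groups, with *Rgs5* higher in sgLkb1. Of the macrophage and leukocyte markers none passed in either comparison. The part of other cells in the *Ibsp*, *Fn1*, *Mgp* and *Sparc* results was not tested.

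**Figure D4:**
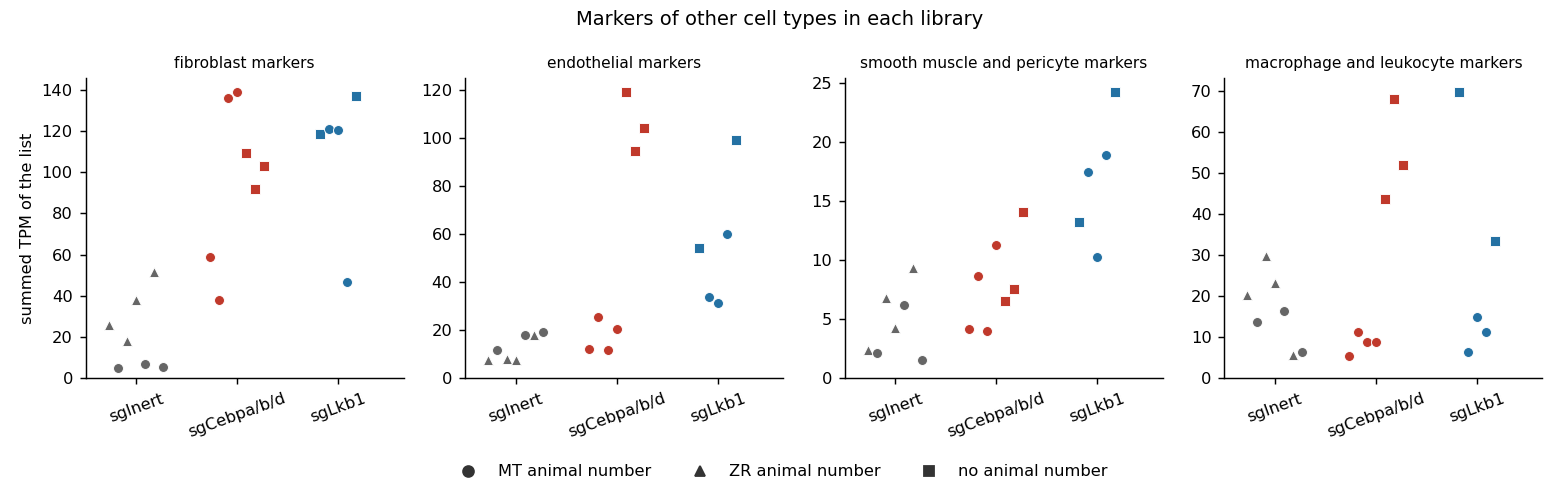
Summed TPM of marker lists for fibroblasts, endothelial cells, smooth muscle cells and pericytes, and macrophages and leukocytes in each library, with shapes for the kind of animal number. Fibroblast sums are lowest in the MT sgInert libraries (5.10 to 6.98 TPM), and within sgCebpa/b/d the endothelial and macrophage sums are highest in the 3 libraries without an animal number (94.58 to 119.17 and 43.67 to 68.04 TPM).

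Among receptors, the integrin β3 subunit stood out. *Itgb3*, which pairs with αv to form a receptor for osteopontin and bone sialoprotein, had 2 to 16 counts in sgInert, 42 to 130 for sgCebpa/b/d, and from 73 up to 151 with sgLkb1. Its log2 fold change was 2.71 ± 0.30 and 3.08 ± 0.31 (edgeR adjusted p = 2.16e-06 and 2.41e-06). No targeted library overlapped sgInert, with 1.28% and 2.15% of genes tested lying wholly above it. *Itgav*, the αv subunit itself, rose by 0.80 ± 0.15 in sgLkb1 (adjusted p = 0.0021) and had 0.31 ± 0.14 in sgCebpa/b/d (adjusted p = 0.170). In sgCebpa/b/d it passed in the MT libraries (0.78, adjusted p = 0.00155) and with title series as a term (0.73, adjusted p = 0.0028). *Itgb6*, an epithelial partner of αv, rose by 0.96 ± 0.17 in sgCebpa/b/d (adjusted p = 0.000778), and *Itga9* fell by 0.88 there (adjusted p = 0.000576). In sgLkb1 both passed in the MT libraries (0.77 and -0.44, adjusted p = 0.00133 and 0.0293) but not with title series as a term. Of 12 receptor genes tested among 13 listed, 2 rose and 1 fell in sgCebpa/b/d, and 2 rose and none fell in sgLkb1, beside 4.73% and 2.81% of all genes higher and 5.36% and 2.97% lower. Their median log2 fold changes were 0.22 and 0.22. *Cd44*, also a receptor of osteopontin, and *Itgb1*, the β1 subunit shared by several fibronectin receptors, did not pass.

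Of 14 mineralization genes listed, 8 were tested. In sgCebpa/b/d 2 rose and 1 fell, and in sgLkb1 none rose and 1 fell, beside 4.73% and 2.81% of all genes higher and 5.36% and 2.97% lower. *Runx2*, the master transcription factor of osteoblasts, rose in sgCebpa/b/d by 1.85 ± 0.35 (edgeR adjusted p = 0.00118) from a median of 0.93 to 2.47 TPM, and had 0.91 ± 0.38 in sgLkb1 (adjusted p = 0.178). *Bmp4*, a bone morphogenetic protein, rose by 0.39 in sgCebpa/b/d (adjusted p = 0.0470). *Bmp2* fell by 1.07 in sgCebpa/b/d (adjusted p = 0.00615) and by 0.98 in sgLkb1 (adjusted p = 0.0336). The *Bmp4* call was lost in the MT libraries, with title series as a term, without the filter, without the ZR libraries and with libraries of 1 animal summed. Both *Bmp2* calls were lost in the MT libraries and with title series as a term, and the sgLkb1 call also without the ZR libraries and with animals summed. The osteoblast genes *Sp7*, *Dlx5* and *Msx2* and the osteocalcin genes *Bglap* and *Bglap2* had 0 counts in all libraries. Other untested genes of these lists were detected. *Phex*, an endopeptidase linked to phosphate balance, had 10 counts over sgInert, 59 over sgCebpa/b/d and 143 over sgLkb1. *Phospho1*, a phosphatase of early mineralization, had 92, 23 and 12, and *Bglap3* had 26, 25 and 12. Single libraries held much of these sums. For *Phex* 1 library held 43 of the 59 and 1 held 61 of the 143. For *Phospho1* 1 library held 39 of the 92 and 1 held 17 of the 23, and for *Bglap3* 1 held 18 of the 26. The median log2 fold change over the 8 tested was 0.40 for sgCebpa/b/d and 0.81 for sgLkb1, beside 0.02 and -0.01 over all genes.

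Of the gamma-carboxylation genes, 1 fell in both comparisons. *Ggcx*, the carboxylase that activates matrix Gla protein, ran from 128.37 to 211.47 TPM in sgInert and from 54.95 to 105.15 TPM in sgCebpa/b/d. In sgLkb1 it ran from 85.22 to 141.23 TPM and overlapped sgInert. It fell by 0.97 in sgCebpa/b/d (edgeR adjusted p = 0.000166) and by 0.60 in sgLkb1 (adjusted p = 0.0332), and on the CPM scale the libraries of each targeted group lay below all sgInert libraries, as for 2.09% and 2.0% of genes. In sgLkb1, *Ggcx* did not pass in the MT libraries alone or with title series as a term (-0.27, edgeR adjusted p = 0.523). It also missed the threshold there without the ZR libraries and with libraries of 1 animal summed. *Vkorc1*, which recycles the vitamin K it uses, had -0.14 and -0.19 (adjusted p = 0.605 and 0.586). Of 7 genes listed, 3 were tested, *Mgp* among them.

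In the SPARC family, 5 of 8 genes were tested and 3 rose in each comparison, *Sparc*, *Sparcl1* and *Fstl1*, beside 4.73% and 2.81% of all genes. *Fstl1*, a secreted follistatin-like protein, rose by 1.34 ± 0.41 in sgCebpa/b/d (edgeR adjusted p = 0.0380) and 2.68 ± 0.43 in sgLkb1 (adjusted p = 0.00056). With libraries of 1 animal summed, *Fstl1* did not pass in sgCebpa/b/d. *Smoc2* and *Spock2* did not pass. Over the 5 tested the median was 1.34 and 1.04, beside 0.02 and -0.01 over all genes.

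Of 27 other adhesive and matricellular glycoproteins, 18 were tested. In sgCebpa/b/d, 6 rose and none fell, and in sgLkb1 4 rose and 1 fell, with medians of 0.34 and 0.54 (0.02 and -0.01 over all genes). The shares of all genes were 4.73% higher and 5.36% lower in the first comparison, 2.81% and 2.97% in the second. *Postn*, which encodes the fibroblast protein periostin, and *Fbln5*, an elastic fiber protein, rose in both, *Postn* by 1.98 ± 0.58 and 2.42 ± 0.61 (edgeR adjusted p = 0.0316 and 0.0209) and *Fbln5* by 1.12 ± 0.26 and 1.37 ± 0.28 (adjusted p = 0.00661 and 0.0042). In sgCebpa/b/d, *Tnxb* (tenascin-X), *Fbn2* (fibrillin-2), *Matn2* and *Efemp2* passed as well, by 2.05, 1.49, 2.13 and 0.84. In sgLkb1, *Tgfbi*, a TGF-β-induced adhesion protein, rose by 2.02 ± 0.29 (adjusted p = 0.000164) and *Fbn1* (fibrillin-1) by 1.90 ± 0.42 (adjusted p = 0.00732), while *Efemp1* fell by 1.23 (adjusted p = 0.0128). *Tgfbi* and *Fbn1* also passed in sgCebpa/b/d in the MT libraries (1.38 and 2.25, adjusted p = 0.00822 and 0.00509). They passed there with title series as a term too (1.19 and 2.18, adjusted p = 0.0132 and 0.00246). *Fbn2* and *Matn2* in sgCebpa/b/d did not pass in the MT libraries alone, with title series as a term or without the ZR libraries. *Efemp1* in sgLkb1 did not pass in these fits either. *Postn* did not pass in either comparison with libraries of 1 animal summed, nor in sgCebpa/b/d with title series as a term. Over the families, 15 listed genes other than the 5 passed in sgCebpa/b/d. In the same direction, 11 of these 15 passed in the MT libraries, 10 with title series as a term and 12 with libraries of 1 animal summed. In sgLkb1, 11 passed, and 8 of them in each of these 3 fits.

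**Figure D5:**
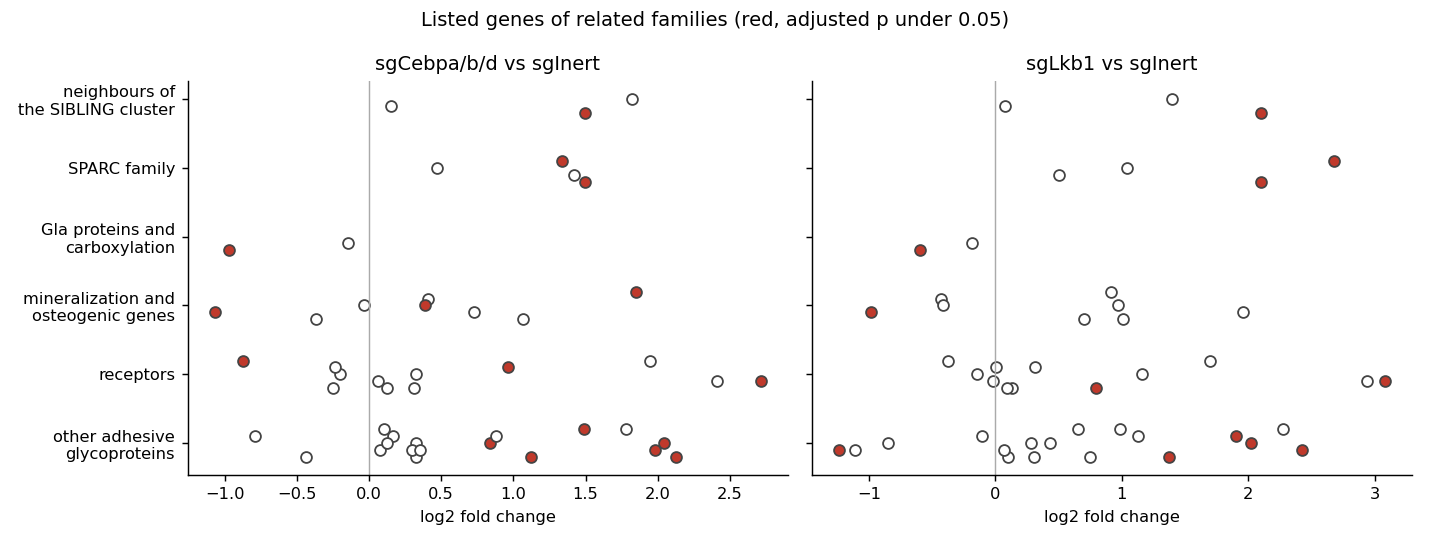
Log2 fold changes of the tested genes of 6 lists in the 2 comparisons with sgInert, with genes at adjusted p under 0.05 in red and the 5 matrix genes left out. SPARC relatives lie right of 0, the carboxylation genes left of it, and the receptors and other glycoproteins on both sides with more red points to the right.

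By Pearson correlation of log2 CPM over the 19 libraries, which span 3 groups and share those group differences, the 5 genes most like *Ibsp* were *Gm37352* (r = 0.91), *Shh* (0.90), *Wif1* (0.89), *Gm4258* (0.89) and *B130024G19Rik* (0.89). *Shh*, which encodes the ligand sonic hedgehog, had medians of 18.2, 56.5 and 42.0 TPM in sgInert, sgCebpa/b/d and sgLkb1. For *Sparc* they were *Itgb3* (0.93), *Fam174b* (0.92) and *Pbxip1* (0.89). For *Fn1* they were *Fstl1* (0.93), *Tmem252* (0.92) and *Fbn1* (0.92), and for *Mgp* *Ism1* (0.91), *Colec12* (0.90) and *Lox* (0.89), the last encoding the collagen cross-linking enzyme lysyl oxidase. The nearest to *Spp1* were *Ube2b* (0.90), *Acad10* (0.83) and *Wdr37* (0.81). Among the 5 themselves, *Fn1* lay close to *Sparc* (0.85) and *Mgp* (0.84), *Ibsp* was nearest to *Sparc* (0.76), and *Spp1* was at most 0.32 from any of them.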

How the data were processed

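Neoplastic cells were sorted, 2 to 10 ng of RNA made into Trio RNA-Seq libraries (samples with an RNA integrity number below 7 were excluded), and paired 75-base reads aligned by the authors with STAR 2.6.1d to mm10 and quantified with RSEM 1.2.30. Per gene and library, the deposited files give an expected count, which RSEM estimates without normalization and which need not be whole. They also give TPM, in which the authors' RSEM run divides by transcript length and rescales each library. RSEM splits reads shared between genes by a model. The authors' deposited fold changes and p-values from DESeq2 1.26.0, and their normalized table, were not used.

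Expected counts were rounded to whole numbers. Genes were filtered with filterByExpr (minimum count 10, minimum total 15), leaving 13986, and fitted in edgeR 4.0.16 (TMM, glmQLFit, glmQLFTest) over all 19 libraries without covariates. Adjusted p-values are Benjamini-Hochberg over all genes tested, and "rose", "fell" and "passed" refer to an adjusted p under 0.05. SE is the log2 fold change divided by the root of F. DESeq2 1.42.0 was an alternative. Log2 CPM used a prior count of 2. R 4.3.3, Python 3.11.15 and GENCODE coordinates on GRCm38 (mm10) were used.

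The 5 genes and the gene lists were chosen with earlier results of these data known. Named genes are the 5, every listed gene at an adjusted p under 0.05 against sgInert, the SIBLING family and its neighbours, and the 5 genes (*Ibsp*) or 3 genes (others) most correlated with each. Other listed genes were named after their values were seen. Groups, replicate numbers, sex and animal numbers come from the labels. The tumor-initiating allele shared by all groups is not reported here. The procedure was tested on simulated counts for sgCebpa/b/d against sgInert (12660 genes). It recovered 67.7% of 99 genes changed by a log2 fold change of 1 and 90.6% of 96 changed by 2. Of 12465 unchanged genes, 7 passed. The changed genes were drawn from those above a limit on mean count, and libraries were simulated as independent. The rates therefore do not cover low-count genes or libraries that share an animal. Chi-square per gene between libraries of a group was 6.91 to 75.2, so no pair differed by counting error alone. Whether 2 libraries were made from 1 RNA sample was not tested. Reads of amplified libraries are not independent molecules. Alternatives covered scaling, test, filter, sex, title series, animals and single libraries.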

Additional observations from a re-analysis of the deposited data

Results flagged for a closer look

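*Ibsp* in sgInert replicate 6, at 0.29 log2 CPM (5 counts), stood apart from the other sgInert libraries, which were all at 0 counts. Because those others share the value 0, any library with counts would have stood apart, so no chance rate applies to it. Groups examined in this way numbered 15.

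The sgCebpa/b/d and sgLkb1 effects differed at an adjusted p under 0.05 in the direct comparison of the targeted groups for 6 of the named genes. *Fn1* (-1.29) and *Tgfbi* (-1.69) were lower with sgCebpa/b/d, and *Bmp4* (0.81), *Itgb6* (0.65), *Tnxb* (2.90) and *Efemp1* (1.53) were higher, as log2 fold changes of sgCebpa/b/d over sgLkb1 (edgeR adjusted p from 1.22e-05 for *Tnxb* to 0.0468 for *Itgb6*). Of all genes tested, 2.83% were higher and 3.12% lower in that comparison. In the MT libraries alone, *Itgb6* did not pass (0.39, edgeR adjusted p = 0.0556), and the others did. Causes were not tested.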

How the results depend on the processing

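*Sparc* kept its direction and its side of the threshold against sgInert in every alternative, and *Fn1* in sgLkb1 against sgInert did too. The size of the latter moved from 2.40 to 3.94 in the MT libraries, 3.86 with title series as a term and 4.05 without the ZR libraries. *Fn1* in sgCebpa/b/d against sgInert passed with DESeq2 (1.11), without the filter (1.13), with sex (1.21), title series (2.53) or a replicate block (1.32) as a term, in the MT libraries (2.46) and, chosen after seeing the data, without the 4 ZR libraries (2.74), and ranged from 0.93 to 1.31 with 1 library left out (adjusted p 0.0243 to 0.0941, passing without sgInert replicate 3, 4 or 6 or sgCebpa/b/d replicate 1). *Fn1* between the targeted groups passed in 8 of 10 alternatives (adjusted p from 1.09e-05) and missed the threshold with libraries of 1 animal summed (-1.13) and with the replicate block (-1.33), and ranged from -1.39 to -1.22 with 1 library left out (adjusted p 0.0159 to 0.102).

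*Mgp* passed against sgInert with title series as a term (2.66 and 3.44), in the MT libraries (2.66 and 3.42) and without the ZR libraries (2.95 and 3.75), and in sgCebpa/b/d was -0.0426 with libraries of 1 animal summed and -0.11 to 0.76 with 1 left out. *Spp1* in sgLkb1 against sgInert was 0.41 with sex, 0.20 with title series, 0.53 in the MT libraries and 0.73 without ZR, and -0.48 to 0.20 with 1 left out. *Ibsp*, whose fitted value against libraries at 0 depends on the prior count, was 10.04 and 8.71 with title series, 10.09 and 8.79 in the MT libraries, and 10.05 and 8.74 without ZR, and 6.72 to 9.97 (sgCebpa/b/d) and 5.33 to 8.67 (sgLkb1) with 1 left out, the highest without sgInert replicate 6.

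Calls past both thresholds numbered 650, 421 and 391, and in sgLkb1 against sgInert 750 with sex as a term. With 1 library left out they were 528 to 701, 320 to 456 and 309 to 410. Replicate numbers did not pair the samples (17 same-number pairs, correlations -0.15 to 0.23). The replicate block gave 610, 525 and 364 calls. Among the 19 named genes, *Bmp2* between the targeted groups turned to 0.0161 with sex and 0.0136 in the MT libraries and ranged from -0.241 to 0.0129 with 1 library left out, *Fbln5* there to 0.18 in libraries without an animal number, and *Fbn2* in sgLkb1 to -0.046 without ZR. The causes were not tested. Depth limits *Ibsp* in sgInert, where 3 counts are 0.387 to 0.795 CPM.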
